A study of Aedes aegypti with 6 samples.

Results

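The genes described here are the 84 genes of the yellow fever mosquito, Aedes aegypti, for which 3 or more transcripts were measured separately on the array. They were found by the part of each transcript identifier that names the gene. This rule used no measured value, but it was set with earlier results of these data known. The group holds 313 of the 13471 transcripts and 84 of the 12813 genes in the table. A further 2 genes of this kind were set aside and are not described. Of the 84 genes, 61 had 3 transcripts, 10 had 4, 5 had 5, 5 had 6, 2 had 8 and 1 had 19. Just outside the limit lay 420 genes with 2 transcripts.

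Testes of early male pupae were compared between T37, a strain that carries a meiotic drive system, and RED, a strain without drive. Each strain was represented by 3 one-colour arrays with Cy3-labelled total RNA, each from a separate extraction of testes, and males of T37 and of RED alike were kept at 26°C, at a humidity of 80% and in a cycle of 16 h light to 8 h dark. The free text on the RED samples mentions T37 too, but their titles, source names and strain labels give RED. The number of males behind an extract and the origin of the strains beyond their names were not known here, and each strain stands for its kind alone, so drive and other strain differences cannot be told apart.

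One gene can give several transcripts through different start sites, through the choice of exons at splicing and through different ends. Such transcripts share part of their sequence and may differ in the protein they encode or in how they are regulated. Testes are known in many animals for a rich use of alternative transcripts during spermatogenesis. On an expression array each transcript is read by its own set of short probes, and a set's brightness depends on the binding of those probes as well as on the amount of RNA. A brighter transcript is therefore not shown to be the more abundant one. In a change of 1 transcript relative to 1 other between arrays, a constant brightness of each set cancels. Against the sum of several others, brighter sets weigh more. A brightness that differs between strains does not cancel. Where transcripts share exons their probe sets may read the same RNA; the probe sequences were not used here. The identifiers are not paired with gene names in the files or in the reference table, so genes are given by identifier, no function is stated, and testis markers could not be looked up.

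Values are log2 of the deposited intensity unless shares are named. Median log2 intensity over all transcripts was 10.84 to 10.96 on the 6 arrays. The transcripts of these genes were brighter, with a median of 12.04 over transcript means against 10.86 for the whole table, and 15 of the 313 (4.79%) lay under an array's 5th percentile on at least 1 array, against 9.88% of all transcripts. RED replicate 3 stood apart. Across the 313 transcripts, which are not independent replicates, it correlated at r = 0.918 and 0.860 with RED replicates 1 and 2, and at 0.854, 0.901 and 0.945 with T37 replicates 1, 2 and 3. It was the brightest of the 6 arrays for 127 of the 313 transcripts (40.6%), against 25.9% of all transcripts. It was the dimmest for 62 (19.8%), against 28.1% of all transcripts. The counts of limma calls below are therefore also given without single arrays.

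Transcripts of a gene differed widely in level in some genes and hardly at all in others. The spread of a gene, taken as the highest minus the lowest transcript mean over the 6 arrays, had a median of 0.92 on the log2 scale, or 1.90-fold, with quartiles of 0.34 and 2.31 and extremes of 0.022 and 6.32. It was under 1 in 46 genes, 1 or more in 38, over 2 in 22 and over 4 in 9. Differences between transcripts of the same gene made up 24.9% of the variance of transcript means. In the 420 genes with 2 transcripts that share was 12.1% and the median spread 0.38. The share and the spread each grow with the number of transcripts in a gene by construction.

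**Figure D1:**
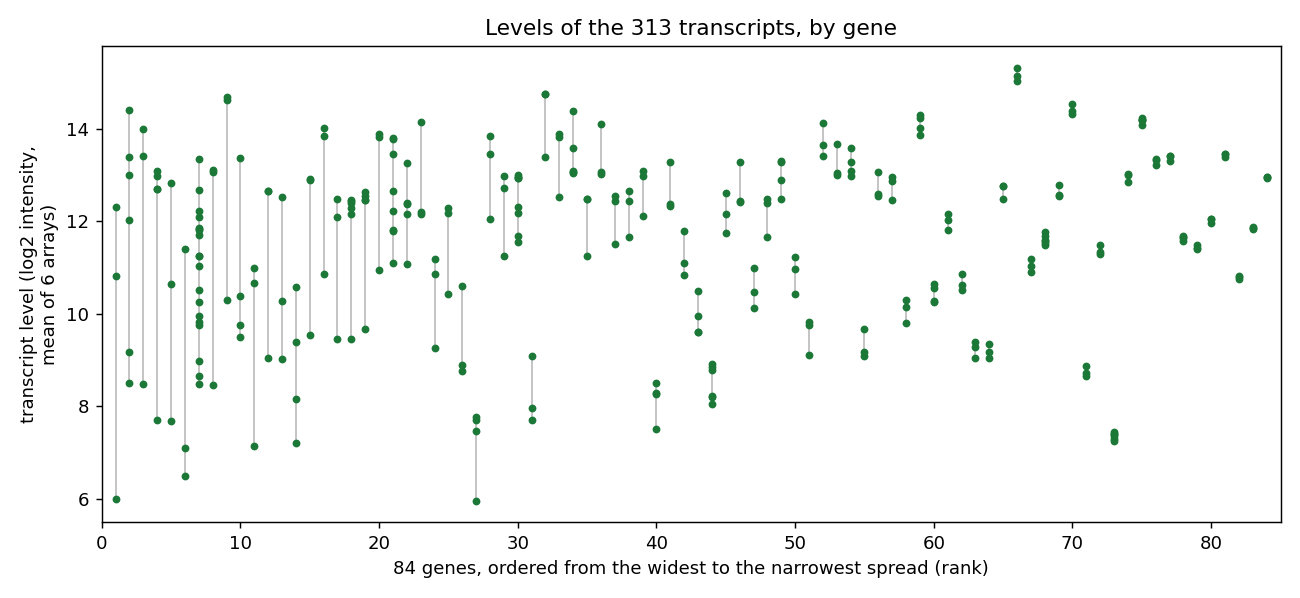
Mean log2 intensity over 6 arrays (vertical axis) of each of the 313 transcripts, one column of points per gene, with genes ordered from the widest to the narrowest spread; the grey line joins the lowest and highest transcript of a gene. Spreads run from 6.32 at the left to 0.022 at the right, and the dimmest transcript of the widest gene has a mean of 5.99.

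A range grows with the number of transcripts by construction, so the difference between pairs of transcripts was also taken. The median pair difference within a gene was 0.68 over the 61 genes with 3 transcripts, 0.43 over the 10 with 4 and 0.52 over the 13 with 5 or more, against 0.38 in genes with 2. These are descriptions over genes and were not tested. Of the 595 pairs of transcripts in the 84 genes, 22 pairs in 19 genes lay within 0.1 of each other on every array, and in 1 gene, AAEL004351, all pairs did.

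The widest spread was found in AAEL009400, where transcript RA was near the dark end of the arrays and RB and RC were not. RA read 5.74, 5.19 and 6.34 on T37 replicates 1, 2 and 3 and 6.93, 6.60 and 5.17 on RED replicates 1, 2 and 3. RB read 12.51, 12.42 and 12.10 in T37 and 12.27, 12.62 and 11.97 in RED. The order RB, RC, RA held on all 6 arrays, and the distance from RB to RA was 5.33 to 7.23. RA lay at percentiles 0.687 to 1.93 of the arrays, where a low intensity cannot be told from background, so this spread is limited by the darkest values. Raising all values below an array's 5th percentile to that level made the spread 5.16.

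AAEL009212 had 6 transcripts in the same order on all 6 arrays. RE, the brightest, read 14.40, 14.36 and 14.35 in T37 and 14.32, 14.65 and 14.38 in RED. RF, the dimmest, read 8.94, 8.82 and 7.70 in T37 and 7.76, 8.74 and 9.11 in RED. The spread of the means was 5.90, and the brightest transcript led the second by 0.85 to 1.20 on each array. RF was not under the 5th percentile on any array.

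In AAEL006346, with a spread of 5.52, transcripts RA and RC were bright and RB dim. RA read 13.83, 13.99 and 13.87 in T37 and 14.05, 14.19 and 14.07 in RED. RC read 12.90, 12.98 and 13.03 in T37 and 13.77, 13.71 and 14.14 in RED. RA led RC by 0.84 to 1.01 on the T37 arrays and by 0.28 and 0.48 on RED replicates 1 and 2, while RC led by 0.069 on RED replicate 3. The log2 ratio of RC to the rest of the gene differed by -0.67, T37 minus RED (SE 0.14, 95% interval -1.01 to -0.33), which did not pass the test described below (limma adjusted p = 0.091).

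AAEL005312, with a spread of 5.40, had 4 bright transcripts and 1 dim one. RA, RB, RC and RD lay within 0.39 of each other in their means, and RE was far below them. RB read 12.40, 13.14 and 13.81 in T37 and 13.13, 11.97 and 14.08 in RED, and RE read 7.43, 8.06 and 8.08 against 7.43, 6.92 and 8.23. On RED replicates 1 and 2 RE lay under the array's 5th percentile, which was 7.61 and 7.45. The spread and the readings of RE are limited by these dark values. All 5 transcripts were lowest on RED replicate 2 and highest on RED replicate 3, and the strains overlapped for each of them. RB was the brightest on every array, by only 0.080 to 0.17.

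The narrowest spreads were 0.022 in AAEL004351, 0.042 in AAEL001100 and 0.067 in AAEL004420. Their order rested on single arrays: without RED replicate 1 AAEL004351 had 0.041 and AAEL004420 0.040, and AAEL001100 had 0.16, 0.18 and 0.16 without T37 replicate 1, RED replicate 2 and RED replicate 3. In AAEL004351 the 3 transcripts were within 0.037 to 0.088 of each other on every array, while their shared level moved from 12.55 to 13.17. In AAEL004420 the distance between the highest and the lowest transcript was 0.011 to 0.20. AAEL001100 was narrow only in its means. Its RA and RC followed each other over the 6 arrays (r = 0.981), whereas RB followed neither (r = 0.0050 and 0.11). RB read 12.19, 11.52 and 12.44 in T37 and 11.51, 12.03 and 11.31 in RED, against 11.56, 11.91 and 12.43 and 11.59, 11.41 and 12.27 for RA. The distance within the gene was therefore 0.082 on RED replicate 1 but 1.06 on RED replicate 3, and each of the 3 transcripts was the brightest on 2 arrays.

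Over the 6 arrays, transcripts of a gene mostly moved together. The median correlation between transcripts of a gene had a median of 0.938 over the 84 genes, and it was above 0.9 in 46 genes. Over all 48233 pairs of transcripts from different genes of the group the median was 0.036. The correlation had a median of 0.955 in the 46 genes with a spread under 1 and of 0.845 in the other 38. At least 1 pair of transcripts correlated below 0 in 10 genes. All these values rest on the same 6 arrays, whose shared structure enters each of them, and they are given as descriptions.

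The 3 genes with most transcripts showed 3 different patterns. AAEL010576, with 19 transcripts, ran from RD at the top to RT at the bottom, 4.86 apart in their means. RD read 13.76, 13.84 and 13.54 in T37 and 13.01, 13.16 and 12.77 in RED, and RT read 8.78, 9.23 and 8.16 in T37 and 7.93, 8.27 and 8.54 in RED. RD was the brightest on all 6 arrays, by 0.43 to 0.86, and RT the dimmest on all but RED replicate 3, where RL was lower. The mean over transcripts was 11.29, 11.44 and 10.89 in T37 against 10.54, 10.84 and 10.52 in RED, with every T37 array above every RED array. All 19 transcripts had a higher mean in T37, by 0.044 to 1.16 with a median of 0.59, and 12 of them did so without overlap. None of the 19 passed the test (limma adjusted p = 0.079 to 0.95). Transcripts of 1 gene share RNA and arrays and are not separate evidence.

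In AAEL002761, with 8 transcripts, 2 sets of transcripts behaved differently between arrays of the same strain. RA, RB, RD, RE and RH moved by 0.39 to 0.61 over the 6 arrays, while RC, RF and RG moved by 1.97 to 2.20. RB read 13.56, 13.62 and 13.70 in T37 and 14.10, 13.82 and 14.01 in RED. RC read 10.71, 11.53 and 12.34 in T37 and 12.29, 11.19 and 12.75 in RED, so it was lowest on T37 replicate 1 and RED replicate 2 and highest on RED replicate 3. Within each set the transcripts correlated at 0.892 to 0.970 and at 0.985 to 0.997, and between the sets at 0.46 to 0.762. The sets were formed after their values were seen. All 8 transcripts had a lower mean in T37, with differences of -0.60 to -0.24, and 5 of them did so without overlap. None passed the test (limma adjusted p = 0.20 to 0.69).

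AAEL010850, also with 8 transcripts, moved as 1 unit. Each transcript changed by 2.32 to 2.95 over the arrays, and pairs correlated at 0.949 to 0.999. RA read 11.22, 12.66 and 13.97 in T37 and 13.82, 12.23 and 14.18 in RED. The 6 arrays fell in the same order for this transcript as for RC of AAEL002761, from T37 replicate 1 to RED replicate 3, and the strains overlapped. Differences between strains were -0.79 to -0.47 and none passed the test (limma adjusted p = 0.64 to 0.76). Among the 3 arrays of at least 1 strain, 103 of the 313 transcripts spanned more than 1 log2 unit and 45 more than 2. Over all 6 arrays, strain differences included, 162 spanned more than 1 and 59 more than 2.

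**Figure D2:**
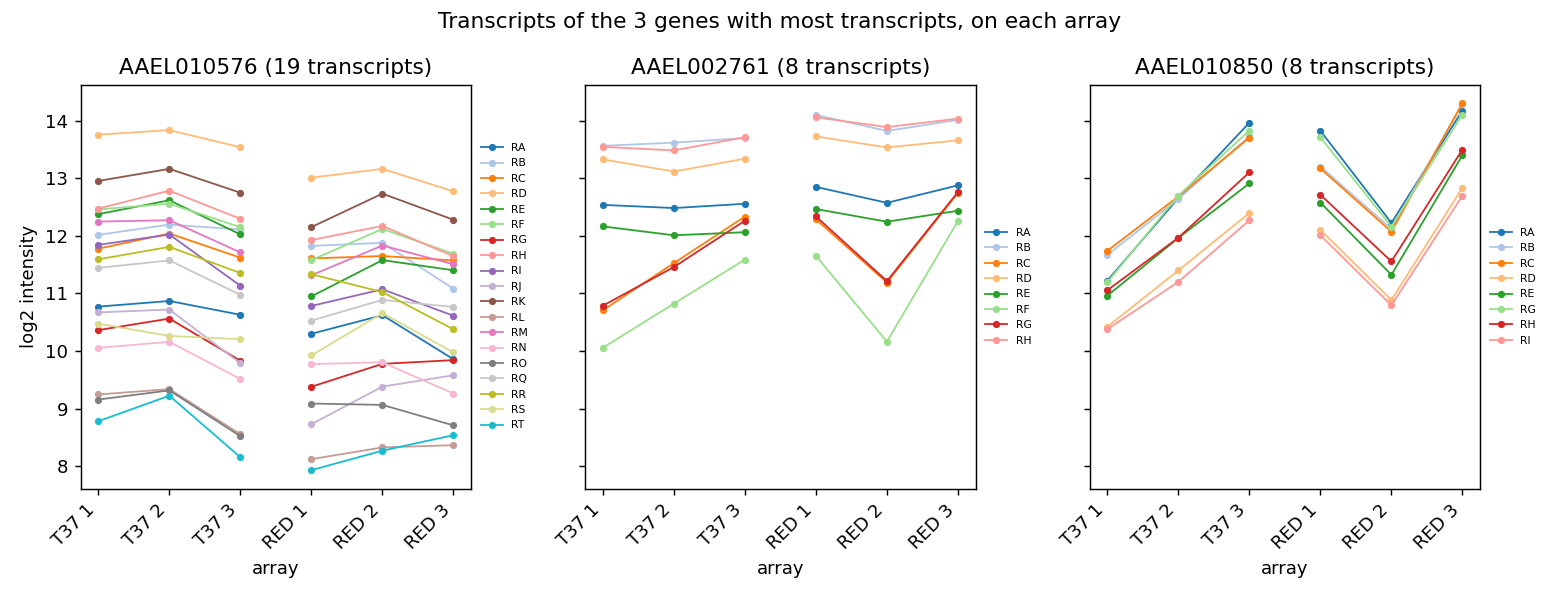
Log2 intensity (vertical axis) of every transcript of AAEL010576, AAEL002761 and AAEL010850 on the 3 T37 and 3 RED arrays (horizontal axis); lines only join the points of 1 transcript within a strain, since replicates have no order. The 19 transcripts of AAEL010576 span 4.86 with RD on top, in AAEL002761 RC, RF and RG move by 1.97 to 2.20 while the others move by up to 0.61, and in AAEL010850 all 8 move together by 2.32 to 2.95.

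The same transcript was the brightest on all 6 arrays in 43 of the 84 genes (51.2%). In 14 genes 5 arrays agreed, in 15 genes 4, in 9 genes 3 and in 3 genes only 2. A single brightest transcript was found on all 3 T37 arrays in 55 genes and on all 3 RED arrays in 54. In genes with 2 transcripts, where agreement is likelier from the start, 281 of 420 (66.9%) had the same one on all arrays. The whole order of transcripts was the same on all arrays in 22 of the 84 genes, and the dimmest transcript in 46.

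The distance between the brightest and the second transcript, taken between means of 6 arrays, had a median of 0.46 in the 43 genes with a constant brightest transcript and of 0.062 in the other 41. It was above 0.5 in 22 genes, of which 20 had a constant brightest transcript. A distance between means shrinks by construction where the leading transcript changes between arrays. Taken on each array between its own brightest and second transcript, the median distance of a gene was 0.45 in the median of the 43 genes and 0.086 in that of the other 41. These are descriptions and were not tested. Leaving out arrays can only raise the number of genes with a constant brightest transcript, which was 44, 47 and 45 without T37 replicates 1, 2 and 3, 44, 44 and 48 without RED replicates 1, 2 and 3, and 53 without the third array of both strains. The order of the letters in the identifiers carried little: in the 52 genes whose transcripts are RA, RB and RC, these were the brightest in 16, 16 and 20 genes and the dimmest in 18, 19 and 15.

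**Figure D3:**
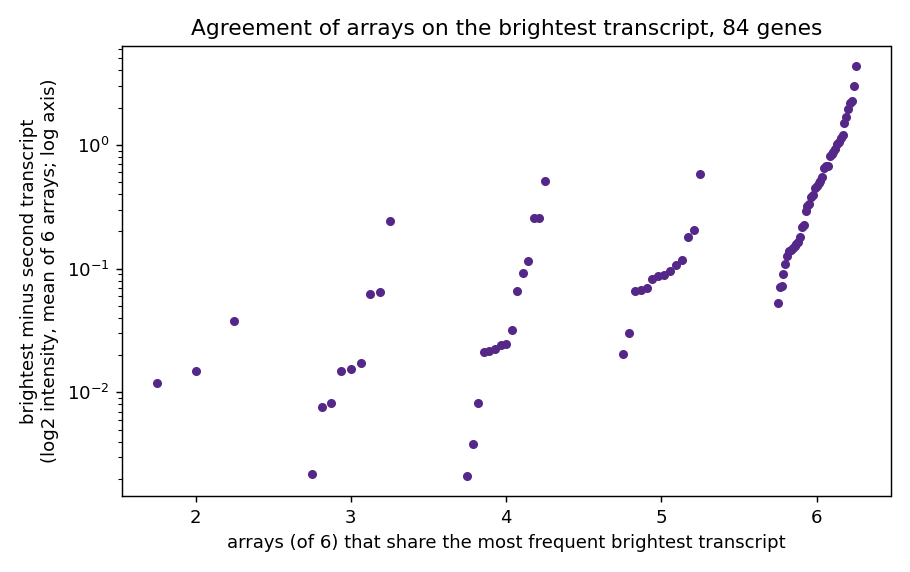
Distance between the brightest and the second transcript (vertical log axis, log2 intensity, mean of 6 arrays) for each of the 84 genes, against the number of arrays that share the most frequent brightest transcript (horizontal axis; points are spread sideways only for legibility). Genes at 6 arrays reach up to 4.31 with a median of 0.46, and the other genes have a median of 0.062.

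No gene of the 84 had one transcript brightest on all T37 arrays and another on all RED arrays, and 9 of the 420 genes with 2 transcripts did. The spread itself was wider in RED in 41 genes and wider in T37 in 43. Its values on single arrays did not overlap between strains in 16 of the 84 genes (19%), 7 wider in T37 and 9 wider in RED, beside 19.2% of the 504 genes with 2 or more transcripts that were described. The median spread on single arrays was 0.85, 0.90 and 0.91 in T37 and 1.12, 1.02 and 1.03 in RED. These medians did not overlap, but they were not tested, and 3 arrays against 3 cannot give a permutation p under 0.1.

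In the full comparison few strain differences in level passed the test, in these genes and in the whole table alike. Of the 84 gene means, 2 passed the test (2.38%) and 0 of these were higher in T37, against 4.53% of all 12813 genes, with limma and a limit of 0.05 on the adjusted p. Without adjustment, 18 of the 84 gene means had a limma p under 0.05, against 2914 of all 12813. Gene means of the strains did not overlap in 26 genes (31.0%), 15 with T37 above and 11 below, against 28.7% of all genes. The median difference without sign was 0.29, against 0.36 for all genes. In testes measured whole, fewer cells of a type and less RNA per cell cannot be told apart.

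Transcripts taken singly gave the same 2 genes. Of the 313 transcripts, 5 passed (1.60%), all lower in T37 in this fit, against 4.38% of all 13471 transcripts, and they belong to AAEL008766 and AAEL004307. Without adjustment, 65 of the 313 had a limma p under 0.05, against 3053 of all 13471. The strains did not overlap for 96 of the 313 (30.7%), against 28.7% of all transcripts. All transcripts of a gene had a difference of the same sign in 65 of the 84 genes, with T37 higher in 32 and lower in 33. The differences within a gene lay 0.24 apart in the median gene and more than 1 apart in 6 genes.

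AAEL008766 fell in T37 in its mean over 4 transcripts. The mean read 7.36, 7.36 and 7.82 on T37 replicates 1, 2 and 3 and 8.82, 8.79 and 8.69 on RED replicates 1, 2 and 3. The 3 T37 arrays lay below the 3 RED arrays with no overlap. T37 was 2.38-fold lower, with a log2 difference of -1.25 (SE 0.19; adjusted p = 0.027 by limma; 95% interval -1.72 to -0.78). Its transcripts RA, RB and RD passed at differences of -1.17, -1.30 and -1.37 (limma adjusted p = 0.023, 0.048 and 0.020), and RC, at -1.16, did not (limma adjusted p = 0.053). All 4 were dim, at percentiles 3.32 to 25.9, and on the 3 T37 arrays RA was below the 5th percentile. Without T37 replicate 3 or RED replicate 3 the gene passed at differences of -1.41 and -1.29. Without T37 replicate 1, T37 replicate 2, RED replicate 1 or RED replicate 2 it did not, at adjusted p = 0.16, 0.16, 0.10 and 0.096 by limma and differences of -1.24 to -1.17.

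AAEL004307, a bright gene with 3 transcripts, also fell. Its mean read 12.77, 12.74 and 12.84 in T37 and 13.69, 13.48 and 13.94 in RED, again with no overlap. T37 was 1.89-fold lower, with a log2 difference of -0.92 (SE 0.18; adjusted p = 0.049 by limma; 95% interval -1.36 to -0.48). RA and RC passed at -0.88 and -1.02 (limma adjusted p = 0.046 and 0.041), and RB, at -0.86, did not (limma adjusted p = 0.069). RB was the brightest transcript on all 6 arrays. Without any single array of the 6 the gene mean did not pass, at differences of -1.03 to -0.80 and limma adjusted p of 0.053 without RED replicate 3 up to 0.23 without T37 replicate 2.

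**Figure D4:**
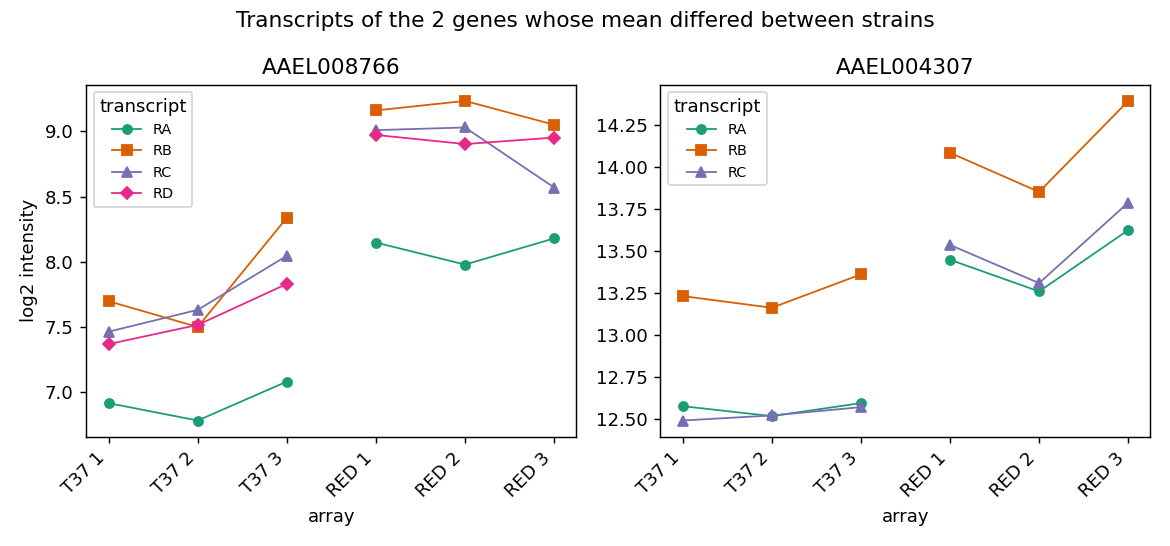
Log2 intensity (vertical axes, which differ between panels and do not start at 0) of each transcript of AAEL008766 and AAEL004307 on the 6 arrays; lines only join the points of 1 transcript within a strain. For each transcript the 3 T37 values lie below the 3 RED values.

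The counts depended on single arrays. Without T37 replicate 1, T37 replicate 2, RED replicate 1 or RED replicate 2, limma called 0 of the 313 transcripts and 0 of the 84 gene means, with 27, 22, 32 and 61 transcripts and 7, 8, 9 and 19 gene means at an unadjusted p under 0.05. Without T37 replicate 3 it called 3 transcripts and 1 gene mean. Without RED replicate 3 it called 10 transcripts, 4 higher and 6 lower in T37, and 2 gene means, of which 1 was shared with the full comparison. The direction of the calls was not kept either. Without the third array of both strains 30 transcripts passed higher and 27 lower in T37. With array weights 50 passed higher and 25 lower. Under these settings 4312 (32%) and 3943 (29.3%) of all 13471 transcripts passed, so calls rose over the whole table. The calls over the whole table moved as well, to 15, 10, 323, 84, 39 and 969 transcripts in the order T37 replicates 1, 2, 3 and RED replicates 1, 2, 3.

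Shares of transcripts were compared next, which asks whether the make-up of a gene's signal differed between strains whatever its total. Each transcript was set against the sum of the other transcripts of its gene on the same array, and the log2 of that ratio was tested. Of the 313 transcripts, 4 passed (1.28%), 1 higher and 3 lower in T37, against 2.06% of the 1164 transcripts of all genes with several. They belong to 3 genes. Without adjustment, 48 of the 313 had a limma p under 0.05, against 186 of the 1164. Shares did not overlap between strains for 64 transcripts (20.4%), 32 in each direction, against 22.1% of the 1164. The median difference without sign was 0.091 for these genes and 0.12 for genes with 2 transcripts. Only 4 of the 313 transcripts differed by more than 1. Transcripts of a gene share 1 sum, so a higher share of one lowers the others and the calls within a gene are not independent.

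The largest difference in share was in AAEL004591, where RA made up more of the gene's signal in T37. Its share of the summed intensity was 21.6%, 24.1% and 23.9% on T37 replicates 1, 2 and 3 and 4.84%, 6.05% and 8.60% on RED replicates 1, 2 and 3. All 3 T37 arrays lay far above the RED arrays, at 23.2% ± 1.36 (SD, n = 3) against 6.50% ± 1.92 (SD, n = 3). On the log2 ratio the difference was 2.16 (SE 0.23; adjusted p = 0.023 by limma; 95% interval 1.58 to 2.74), or 4.47-fold. RC fell in share from 48.3% ± 0.448 in RED to 39.7% ± 2.16 in T37 (SD, n = 3 each; limma adjusted p = 0.049). The call for RC was lost in 13 of 18 alternatives. On the same log2 ratio, differences were -0.56 to -0.43 around the -0.51 of the full comparison. Other measures are on other scales and gave -1.08 (diffSplice, described below), -0.72 (against the mean log2 of all the gene's transcripts) and -0.28 (log2 share of the summed intensity). The share of RB was 45.2% ± 1.82 (SD, n = 3) in RED against 37.1% ± 1.35 (SD, n = 3) in T37, which did not pass (limma adjusted p = 0.060).

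The separation was seen in the share and not in the level of the single transcripts. RA read 10.30, 11.46 and 11.96 in T37 and 9.16, 9.12 and 10.61 in RED, so that the strains overlapped, and its difference of 1.61 in level did not pass (limma adjusted p = 0.17). RC read 11.24, 12.09 and 12.70 in T37 and 12.49, 12.10 and 13.10 in RED. All 3 transcripts moved by more than 1 log2 unit among the T37 arrays, in the same order of arrays, while the share of RA stayed within 21.6% to 24.1%. The 3 transcripts lay at percentiles 23.5 to 82.5, away from the dark end. Whether RA differs through transcript use or through sequence differences under its probes was not tested.

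In AAEL002435, a gene with 5 transcripts, RE fell in share. It made up 12.9%, 12.8% and 13.0% of the signal in T37 and 16.0%, 16.2% and 15.9% in RED, with very little spread among the arrays of a strain. The ratio was 1.29-fold lower in T37, a log2 difference of -0.37 (SE 0.047; adjusted p = 0.037 by limma; 95% interval -0.49 to -0.26). The level of RE itself was 0.13 higher in T37 and did not pass (limma adjusted p = 0.73). RC of the same gene stood at 17.4% ± 0.767 in T37 against 11.5% ± 2.12 in RED (SD, n = 3 each) and did not pass (limma adjusted p = 0.12). RA was the brightest transcript on all arrays, with 34.4% ± 0.670 (SD, n = 3) for T37 and 37.2% ± 2.21 (SD, n = 3) for RED.

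In AAEL011302, also with 5 transcripts, RE fell in share as well. It made up 13.2%, 14.1% and 15.4% of the signal in T37 and 19.3%, 20.4% and 19.4% in RED, with no overlap. The ratio was 1.48-fold lower in T37, a log2 difference of -0.56 (SE 0.084; adjusted p = 0.042 by limma; 95% interval -0.77 to -0.35). The other 4 transcripts did not pass (limma adjusted p = 0.46 to 0.89), and RB was the brightest on all arrays. The gene's levels moved widely within each strain, RE from 11.05 to 12.66 in T37 and from 11.72 to 13.10 in RED.

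**Figure D5:**
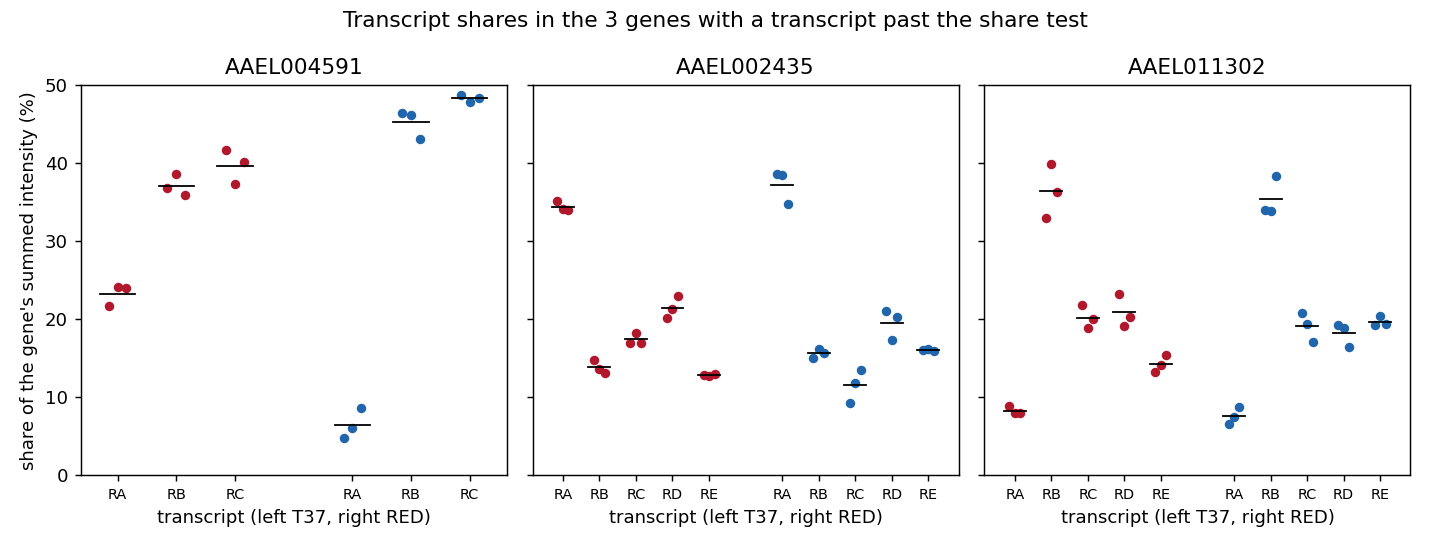
Share of the gene's summed intensity (vertical axis, percent) of each transcript of AAEL004591, AAEL002435 and AAEL011302, with T37 in red on the left and RED in blue on the right of each panel; points are the 3 arrays of a strain and bars their mean. RA of AAEL004591 stands at 21.6% to 24.1% in T37 and 4.84% to 8.60% in RED, and RE of the other two genes is lower in T37.

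These calls too rested on all arrays. Without T37 replicate 1, T37 replicate 2, T37 replicate 3, RED replicate 1 or RED replicate 2, limma called 0 of the 313 shares, with 31, 33, 52, 36 and 39 at an unadjusted p under 0.05. Without RED replicate 3 it called 10, among them 3 of the 4, against 57 of all 1164 shares (4.9%). The sizes moved little: RA of AAEL004591 differed by 1.96 to 2.40 over these 6 comparisons, with limma adjusted p of 0.0035 without RED replicate 3 and of 0.065 to 0.13 without each of the others. By limma's diffSplice, which compares a transcript's difference with the others of its gene without pairing them on an array, 0 of the 313 transcripts passed, with 13 at an unadjusted p under 0.05, and RA of AAEL004591 had an adjusted p of 0.40, against 0.0025 to 0.16 under the other alternatives. Over genes, diffSplice found 0 of the 84 genes past the adjusted limit and 7 with an unadjusted p under 0.05, against 1 and 26 of all 506.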

How the data were processed

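The deposited table holds 1 linear intensity per transcript and array; per the submitters' processing notes the authors used RMA, which corrects background, aligns the arrays and summarises probes. RMA hides a difference common to all transcripts, and no detection calls were used. Per the labels' protocols, RNA was extracted with Trizol and labelled with Cy3 by NimbleGen. The RMA version, array design and annotation release were not stated.

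The 6 columns were matched to samples by accession and grouped by title. Intensities were converted to log2 without a pseudocount. The tests used limma (version 3.58.1, under R 4.3.3; lmFit, eBayes, two-sided, T37 minus RED, no covariate or filter) on 13471 transcripts, on the means of 12813 genes, and on log2 of a transcript over the sum of its gene's other transcripts, for 1164 transcripts of 506 genes. Benjamini-Hochberg adjustment ran over each whole table at 0.05. Intervals cover 95%; the number of arrays limits precision.

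On simulated data of 1164 transcripts the share test found 96 of 100 changes of 1 and 99 of 100 changes of 2 (log2), with 11 calls in unchanged genes. Many genes were changed at once there, which eases the adjusted limit. The noise was drawn independently, apart from a shift shared by a gene's transcripts on an array. These rates may therefore not hold for the real arrays. Members, measures and lists were chosen with earlier results of these data known. Named genes are the 3 with most transcripts, the 4 widest and 3 narrowest in spread, and those past a test. Any whose brightest transcript turned with strain on all arrays were to be named too. All further genes, in the closing section, were chosen after their values were seen. None of the 19623 genes in the reference table carries these identifiers. Replicate numbers did not pair the arrays: deviations of same-numbered arrays correlated at -0.24, -0.15 and -0.15.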

Additional observations from a re-analysis of the deposited data

How the results depend on the processing

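The median spread was 0.82 to 0.96 under the array, scaling and dim-value alternatives. A constant brightest transcript was found in 41 to 53 of the 84 genes, the 53 over 4 arrays, where agreement is likelier, and in 38 of the 74 genes that kept 2 or more transcripts without the dimmest 25%; taken as the SD over transcripts, the median spread was 0.47, a smaller measure by construction. Counts past limma's threshold, for transcripts (5), gene means (2) and shares (4), were 0 to 10, 0 to 2 and 0 to 10 when 1 array was left out. They were 57 (30 higher and 27 lower in T37), 10 (5 and 5) and 18 (9 and 9) without the third array of both strains. With array weights they were 75 (50 and 25), 18 (11 and 7) and 14 (5 and 9). Of all transcripts, gene means and shares tested, 32%, 32.9% and 9.36% passed without the third arrays. With array weights 29.3%, 30% and 5.76% of them passed. With the replicate block, limma called 0, 0 and 0, with 47, 12 and 38 at an unadjusted p under 0.05; the numbers did not pair the arrays, and in deviations from the strain means each T37 array correlated most with a RED array of another number (r = 0.36 to 0.45). Cyclic loess gave 8 transcripts, beside 5.26% of all transcripts. An intensity trend gave 8 transcripts and 1 gene mean, beside 5.52% of all transcripts and 5.64% of all gene means. A robust prior gave 1 gene mean, beside 4.12% of all gene means. Removal of the dimmest 25% of transcripts gave 1 gene mean (AAEL008766 was then not tested), beside 7.38% of all gene means tested. Quantile normalisation gave 1 share and diffSplice 0 shares (13 unadjusted), beside 0.601% and 0.172% of all shares. Why the other counts moved was not tested. The 11 named strain and share differences kept their sign in all 180 values and their side of the threshold in 95; of the 66 values with 1 array left out, 12 stayed past it. Removing the dimmest 25% of transcripts took the dim transcripts out of the widest genes, so that the spread became 1.49 in AAEL009400, 2.39 in AAEL009212, 0.58 in AAEL006346 and 0.39 in AAEL005312. Median centring cancels in shares and was not run there.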

Other observations

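In AAEL003053, chosen after its values were seen, 6 transcripts formed 2 sets that moved apart between arrays. The spread of their means was 0.88, and the gene was dim. Its lowest transcript read 7.59 on T37 replicate 3 and 7.75 on RED replicate 1. The 5th percentiles of these arrays were close below, at 7.37 and 7.61. RB, RC and RF were high on T37 replicate 3, while RA, RD and RE were at their lowest there. RC read 8.47, 8.65 and 9.17 on T37 replicates 1, 2 and 3 and 9.15, 9.24 and 8.46 on RED replicates 1, 2 and 3. RE read 8.22, 8.40 and 7.59 on the T37 arrays and 8.01, 8.45 and 8.60 on the RED arrays. The median correlation between its transcripts over the 6 arrays was -0.34, the lowest of the 84 genes.

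AAEL001509, also chosen after its values were seen, had the largest distance between the brightest and the second transcript, 4.31 in the means and 3.90 to 4.80 on single arrays. RB read 11.48, 11.32 and 11.42 in T37 and 11.35, 11.17 and 11.66 in RED, nearly alike on all arrays. RA and RC were under the 5th percentile on 3 and 5 of the 6 arrays, so their order has no meaning and the distance from RB is limited by these dark values.

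In AAEL011904, chosen after its values were seen, the brightest transcript turned with strain on all but 1 array. It also did so in AAEL011240, AAEL010565, AAEL000461, AAEL008928, AAEL002417 and AAEL001767. On single arrays the leader and the second lay only 0.0025 to 0.11 apart in AAEL011240, AAEL002417 and AAEL001767. They lay 0.011 to 0.69 apart in AAEL010565, AAEL000461 and AAEL008928. In AAEL011904, RC was the brightest on all T37 arrays and RB on RED replicates 1 and 2, but RC led on RED replicate 3. RC read 11.80, 11.93 and 11.54 in T37 and 10.32, 10.67 and 11.09 in RED, and RB read 11.29, 11.17 and 10.76 against 10.66, 11.12 and 10.82. The share of RC was 0.79 higher in T37 on the log2 ratio, which did not pass (limma adjusted p = 0.10).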
